A study of Mus musculus with 12 samples.

Results

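Mitochondrial ribosomal protein genes are the nuclear genes for the protein parts of the ribosome inside mitochondria. They were chosen by symbol alone, as Mrpl (large subunit) or Mrps (small subunit) followed by a number and at most 1 letter. The table held 78 such genes among 55885, 49 of them Mrpl and 29 Mrps, and all 78 were among the 13815 genes with enough signal to be tested. Expression in cardiac tissue was measured by RNA sequencing in 12 male C57BL/6 mice (C57BL/6J in the study's methods) aged 8 weeks, 3 in each of 4 groups. The Saline group was wild type and received saline (the sample labels call it untreated), and the CDDP group was wild type and received cisplatin, a platinum drug that damages DNA, at 6 mg/kg into the abdomen on days 1, 8 and 15. The STING-/- group carried a germline deletion of Tmem173, the older symbol of Sting1, in every cell of the body and was not given cisplatin, and the STING-/-+CDDP group carried the same deletion and received the same course of the drug. Hearts were taken on day 22. Per the study's methods, wild-type and STING-/- mice came from different suppliers. Genotype and supplier therefore cannot be told apart in any comparison between the genotypes. STING is a sensor of cytosolic DNA signals, and the comparisons ask how cisplatin changed these genes in wild-type hearts and whether the change was the same without STING.

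The mitochondrial ribosome translates the few proteins encoded by mitochondrial DNA, all of them subunits of the respiratory chain and of ATP synthase. Its RNA comes from the mitochondrial genome, while its proteins are made in the cytosol from nuclear genes and imported, so that a complete ribosome needs matched output of both genomes. The heart depends on oxidative phosphorylation for almost all of its ATP, and inherited defects of Mrpl3, Mrpl44, Mrps22 and Mrps14 cause cardiomyopathy in people. Regulators of the nuclear genes for mitochondrial proteins include the transcription factors NRF1, GABP (an ETS factor), YY1 and the estrogen-related receptors.

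Values are TPM, a unit in which the reads of a gene are divided by its length and each heart is scaled to the same sum. They can therefore be compared between genes, but hold no read counts, and the depth behind each value is unknown. Fold changes are on the log2(TPM + 1) scale, which makes the change of genes with low TPM smaller. A gene was counted as higher or lower where its adjusted p-value was under 0.05 by limma, fitted to all 12 hearts at once and adjusted by Benjamini-Hochberg for 13815 genes. Hearts are listed in the order of their sample numbers. An exact permutation test of 3 hearts against 3 cannot give a two-sided p under 0.10.

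The deletion was looked at first. TPM of Sting1 was 12.3, 6.59 and 6.50 with saline and 22.1, 5.62 and 8.81 with CDDP in wild-type mice. In mice with the deletion it was 3.82, 5.96 and 2.87 without cisplatin and 4.26, 4.67 and 3.37 with it. Its RNA was thus lower in every STING-/- heart than in every Saline heart and lower in every STING-/-+CDDP heart than in every CDDP heart, but was not at 0. The heart muscle markers Myh6, Actc1, Tnnt2, Tnni3, Myl2, Ryr2 and Pln were above 0 in every heart, with a summed TPM between 22700 and 46740.

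Promoters that help in following the results are printed here from the windows of RefSeq (GRCm38.p6, 250 bases before to 50 bases after each start), which held 75 windows for 69 of the 78 genes. Single promoters come first. Mrpl12 was 1 of the members that fell most and has a match to the NRF1 motif GCGCANGCG, 80 bases before its start, in the stretch chr11:120484537-120484636 on the plus strand. Mrpl3, Mrps22 and Mrps27 also fell and have a match to the ETS motif CCGGAAGT, 19, 11 and 49 bases before the start, in chr9:105053168-105053267 (plus), chr9:98601680-98601779 (minus) and chr13:99344686-99344785 (plus). Mrpl17, which did not fall, has 2 matches to the NRF1 motif, 49 and 11 bases before its start in chr7:105811088-105811187 on the minus strand. Capitals mark the matches, which were searched on both strands.
Mrpl12: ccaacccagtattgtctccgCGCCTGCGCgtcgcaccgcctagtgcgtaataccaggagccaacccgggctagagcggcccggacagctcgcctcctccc
Mrpl3: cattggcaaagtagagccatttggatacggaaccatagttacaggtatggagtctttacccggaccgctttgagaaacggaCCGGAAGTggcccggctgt
Mrps22: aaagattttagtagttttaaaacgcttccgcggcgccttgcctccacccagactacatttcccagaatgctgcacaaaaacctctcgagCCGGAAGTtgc
Mrps27: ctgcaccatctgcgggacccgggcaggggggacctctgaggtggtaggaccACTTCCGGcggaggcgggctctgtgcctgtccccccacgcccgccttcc
Mrpl17: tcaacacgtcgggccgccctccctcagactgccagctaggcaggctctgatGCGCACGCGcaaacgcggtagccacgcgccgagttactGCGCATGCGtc

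A further pair of stretches lies between neighbours that face away from each other. Mrps12 and Sars2 start 170 bases apart on opposite strands, and the stretch between them, chr7:28741822-28741991 on the strand of Mrps12, holds 4 CCAAT boxes, the motif of NF-Y, in capitals below. In RefSeq, Mrpl46 and Mrps11 start 41 bases apart at chr7:78783090-78783130, while in GENCODE M21 the genes overlap, with 12 of the 41 bases in an exon of Mrps11. The stretch is printed on the strand of Mrps11 with a match to the Sp1 motif GGGCGG in capitals. Mrps12 is shown because it was set apart from the other members by genotype, and the Mrpl46 and Mrps11 pair because both genes fell with cisplatin.
Mrps12: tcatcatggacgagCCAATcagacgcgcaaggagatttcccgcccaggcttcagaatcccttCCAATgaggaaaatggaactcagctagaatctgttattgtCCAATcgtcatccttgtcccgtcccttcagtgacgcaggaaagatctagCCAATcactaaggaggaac
Mrps11: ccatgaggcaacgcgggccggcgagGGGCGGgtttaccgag

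Levels of the members spread widely. The median TPM over the 12 hearts ran from 4.22 for Mrpl19 to 561 for Mrpl42, with a median over the 78 genes of 47.8, and 12 genes were over 100 while 4 were under 10. Mrpl42, a protein of the large subunit without a bacterial counterpart, was followed by Mrps21 (303), Mrpl30 (242), Mrpl33 (201) and Mrpl52 (149). At the other end stood Mrpl19, Mrpl23 (4.99), Mrpl35 (9.29), Mrpl1 (9.97) and Mrpl47 (11.5). The low value of Mrpl23 goes with a copy of the gene on chromosome 2, Mrpl23-ps1, which was listed at 142 to 191 TPM and held between 95.2% and 97.7% of the TPM of the pair in each heart. Reads cannot be assigned to a gene or its copy with certainty where the sequences are nearly identical, so the value of Mrpl23 is uncertain. The median of the Mrpl genes was 53.9 and that of the Mrps genes 40.

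Summed over the 78 genes, TPM came to 5827, 5468 and 5647 with saline. With CDDP it came to 4403, 4892 and 4874, so that every CDDP heart lay below every Saline heart. For STING-/- mice the sums were 5078, 5381 and 5556, and for STING-/-+CDDP mice 4856, 5296 and 4739.8, and these overlapped. As mean ± SD (n = 3), these were 5647 ± 179 with saline, 4723 ± 277 with CDDP, 5339 ± 242 in STING-/- hearts and 4964 ± 294 in STING-/-+CDDP hearts. In bulk tissue, fewer cells of a type and less of an RNA per cell cannot be told apart.

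**Figure D1:**
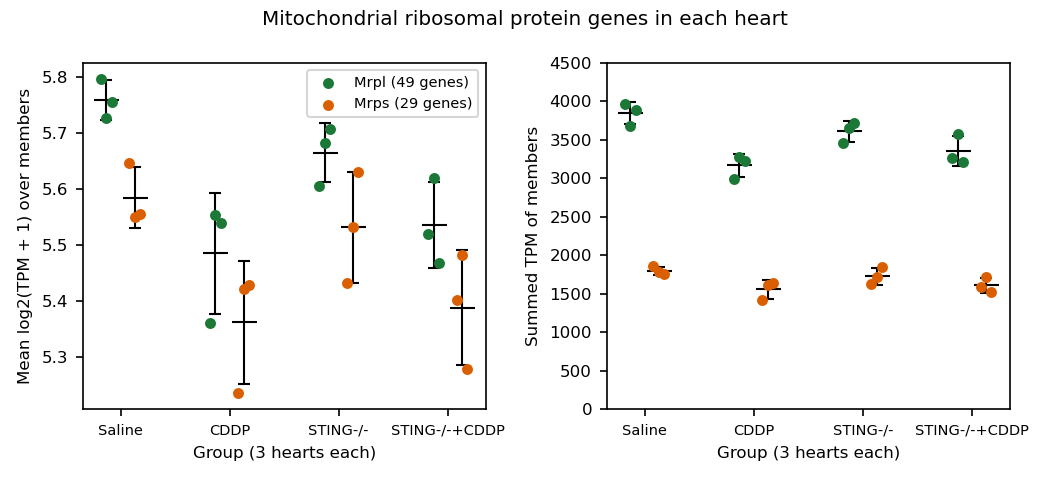
Mean log2(TPM + 1) (left) and summed TPM (right) of the Mrpl and Mrps genes in each heart, by group; each point is 1 heart and black bars are the mean ± SD of 3 hearts. Summed TPM of the Mrpl genes was 3846 ± 145 in Saline and 3168 ± 155 in CDDP hearts, that of the Mrps genes 1802 ± 52.0 and 1555 ± 125, and the first CDDP heart was the lowest for both.

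With cisplatin in wild-type hearts, 24 of the 78 genes were lower and 1 was higher. Among all tested genes, 10.4% were lower and 8.52% higher in this comparison, against 30.8% and 1.28% of the members. The median standard error was 0.14 for the members and 0.22 for all tested genes, so members could pass at smaller changes. The median log2 fold change of the members was -0.24, with 61 of 78 below 0, and that of all tested genes was -0.0032. The groups did not overlap for 34 members that were lower and 5 that were higher, where 17.1% and 14.9% of all tested genes showed this. The median of the members stayed between -0.30 and -0.17 under the 20 alternatives tried. Leaving out the first Saline heart left 14 members lower, leaving out the third Saline heart left 15, and a fit of only the 6 hearts compared left 8. Scaling by the median of ratios gave 18, of which 16 were among the 24, and quantile normalization gave 29, with all 24 among them.

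On the log2(TPM + 1) scale the largest fall was that of Mrpl34, while by the ratio of mean TPM Mrpl19 fell more (0.402 of the Saline mean, against 0.454 for Mrpl34), as it did with a pseudocount of 0.1. Mrpl34 (ENSMUSG00000034880, chr8:71464959-71465747 of GRCm38) is a small protein of the large subunit. Its TPM was 165, 135 and 161 with saline and 55.0, 79.5 and 75.04 with CDDP. The groups lay far apart, and the log2 fold change was -1.14 with a standard error (SE) of 0.17 and, by limma, adjusted p = 0.00194. TPM was 129.5, 153 and 168 in STING-/- mice and 103, 127 and 94.7 in STING-/-+CDDP mice, and each of these hearts was above every CDDP heart.

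Mrpl12 (chr11:120484613-120489065) forms the flexible stalk that recruits translation factors, and is also known to bind the mitochondrial RNA polymerase. Its TPM was 181, 153 and 180.0 with saline and 84.7, 91.9 and 85.2 with CDDP. The CDDP hearts were close together and the lowest Saline heart stood well above them, with a log2 fold change of -0.96, an SE of 0.12 and, by limma, adjusted p = 8.02e-04, the lowest adjusted p among the members. Mrpl10, the base of the same stalk, went from 35.1, 31.4 and 30.5 to 23.9, 23.4 and 23.1 TPM without overlap, and its log2 fold change was -0.44 (adjusted p = 0.0198 by limma).

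Mrpl19 and Mrpl3, both of the large subunit, fell by 1.02 and 0.93 on the log2 scale. Mrpl19 was the least abundant member, at 7.0, 4.82 and 5.67 TPM with saline and 1.96, 2.49 and 2.58 with CDDP (adjusted p = 0.00495 by limma). Mrpl3 went from 93.9, 84.5 and 74.6 to 33.9, 47.9 and 50.5 TPM (adjusted p = 0.00963 by limma). Both pairs of groups were without overlap. For Mrpl3 the STING-/- hearts, at 47.9, 64.1 and 70.7 TPM, were all below the Saline hearts and overlapped the CDDP hearts. Mrpl18, a protein of the central protuberance, was 103, 99.2 and 98.3 TPM with saline and 55.2, 58.7 and 67.3 with CDDP, a log2 fold change of -0.73 (adjusted p = 0.00334 by limma).

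In the small subunit the largest falls were those of Mrps34, Mrps2 and Mrps27. Mrps34, which is specific to mitochondria and needed for a stable small subunit, was 109, 86.9 and 109 TPM with saline and 54.2, 60.6 and 58.9 with CDDP. These groups did not overlap, and the log2 fold change was -0.79 with an SE of 0.15 and, by limma, adjusted p = 0.00587. Mrps2, which has a counterpart in bacteria, went from 17.7, 15.98 and 15.7 to 8.23, 10.6 and 9.13 TPM, with a log2 fold change of -0.76. Mrps27, a protein with pentatricopeptide repeats that bind RNA, went from 37.8, 31.6 and 30.5 to 19.4, 22.9 and 16.6 TPM, with a log2 fold change of -0.74. Both were without overlap, with adjusted p = 0.00573 and adjusted p = 0.00793 by limma.

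The called genes stood at all levels of abundance. Mrpl42, the most abundant member, was lower, at 648, 566 and 677 TPM with saline and 364, 403 and 429 with CDDP (log2 fold change -0.66, adjusted p = 0.00327 by limma). Its groups did not overlap. Mrps21, Mrpl30, Mrpl33 and Mrpl52, the next in abundance, were not called, with log2 fold changes of -0.13, 0.10, 0.18 and 0.36. The 24 genes lay on 13 chromosomes, 14 of them Mrpl and 10 Mrps, and their median TPM over the hearts was 54.5, against 45.3 for the other 54 genes. Their median transcript length was 1208 bases, against 1404.5 for the others.

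The 4 members linked to cardiomyopathy are given one by one. Mrps22 was 22.1, 18.4 and 21.1 TPM with saline and 12.7, 12.9 and 13.7 with CDDP, a log2 fold change of -0.61 (adjusted p = 0.00963 by limma) without overlap, and Mrpl3 is described above. Mrps14 was 47.3, 38.5 and 42.4 TPM with saline and 31.6, 28.1 and 35.5 with CDDP. It lay just inside the threshold (log2 fold change -0.42, adjusted p = 0.0491 by limma) and passed in 6 of the 20 alternatives. The TPM of Mrpl44 was 43.9, 41.8 and 40.4 with saline and 28.8, 37.2 and 41.4 with CDDP, groups that overlapped, with a log2 fold change of -0.24 (adjusted p = 0.301 by limma).

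Other members with a known role mostly did not pass. Mrpl45, which anchors the ribosome to the inner membrane at the tunnel exit, had a log2 fold change of -0.42 (adjusted p = 0.0877 by limma). Mrpl58, a peptidyl-tRNA hydrolase built into the large subunit, was at -0.04, with 62.5, 62.5 and 56.3 TPM with saline and 53.0, 65.7 and 57.8 with CDDP. Its groups overlapped. Mrps12, part of the decoding centre, was at -0.24 (adjusted p = 0.186 by limma). Mrps36 is a subunit of the 2-oxoglutarate dehydrogenase complex in spite of its symbol, and was 129, 141 and 131 TPM with saline and 77.8, 115 and 97.8 with CDDP (log2 fold change -0.48, adjusted p = 0.0349 by limma). It passed in 12 of the 20 alternatives.

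Mrps18b was the single member that rose. Its TPM was 30.01, 26 and 22.8 with saline and 37.1, 38.8 and 38.7 with CDDP. The CDDP hearts were nearly level and above every Saline heart, with a log2 fold change of 0.53, an SE of 0.15 and, by limma, adjusted p = 0.0301. It passed in 14 of the 20 alternatives and not in the fit of only the 6 hearts compared. Mrps18b, Mrps18a and Mrps18c are related proteins of which each ribosome holds all 3, the first and the last in the small subunit and Mrps18a in the large. Mrps18a and Mrps18c were not called, at log2 fold changes of -0.03 and 0.16. Mrpl52 and Mrpl17 came next to Mrps18b at the upper end. Mrpl52 was 149, 149 and 131 TPM with saline and 222, 153 and 180.3 with CDDP (0.36, adjusted p = 0.0957 by limma), and Mrpl17 was 54.2, 57.1 and 51.0 TPM and 59.8, 78.1 and 67.0 (0.32, adjusted p = 0.133 by limma).

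**Figure D2:**
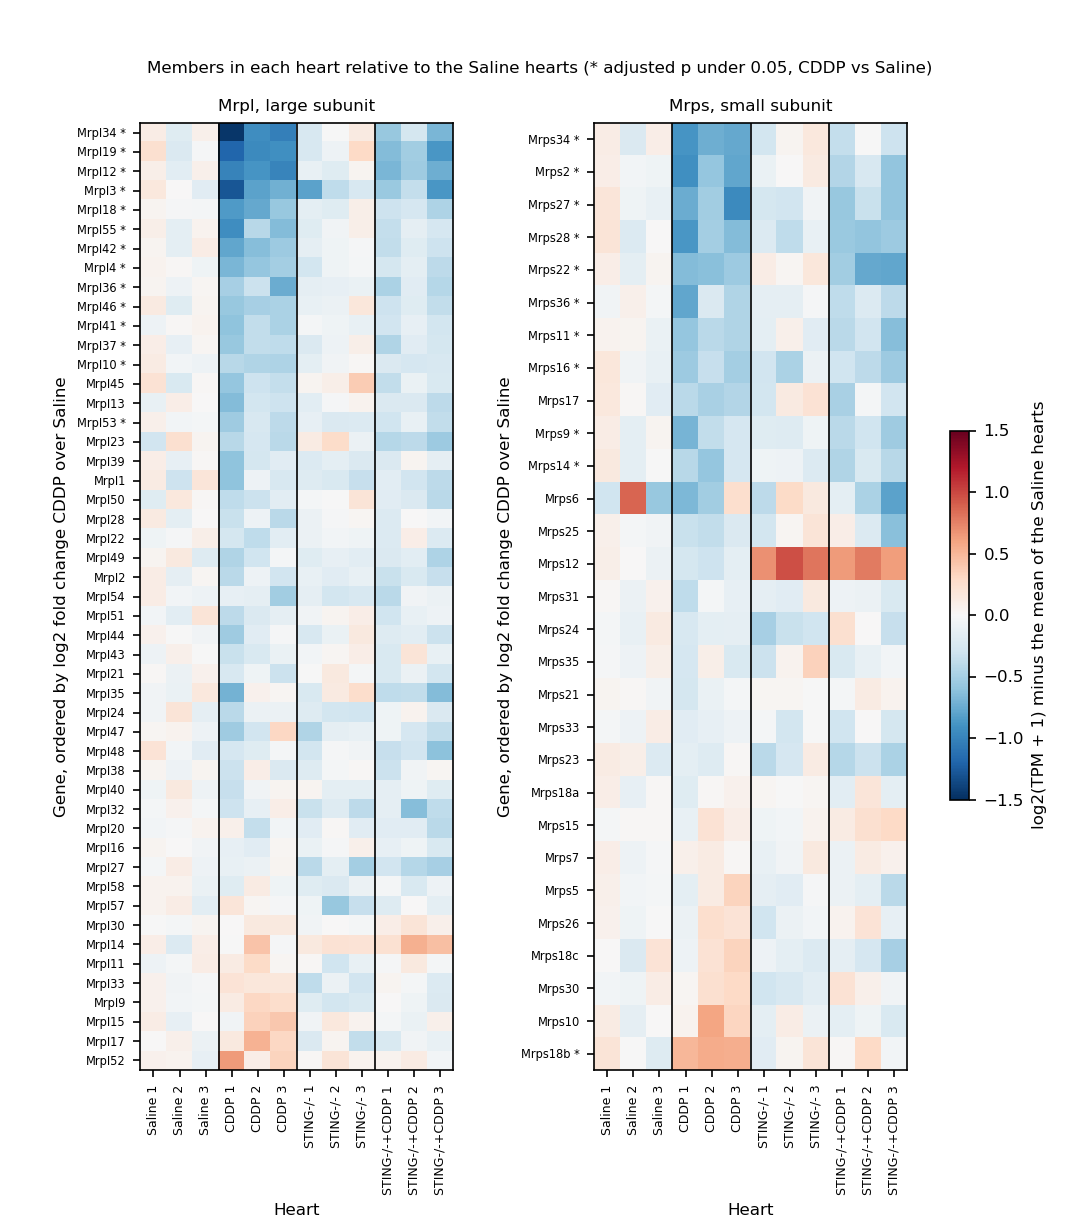
All 78 genes in all 12 hearts, as log2(TPM + 1) minus the mean of the 3 Saline hearts, for Mrpl (left) and Mrps genes (right), ordered by the log2 fold change between CDDP and Saline; blue is lower, red is higher, and an asterisk marks the 25 genes with an adjusted p under 0.05. The CDDP columns are darkest for Mrpl34, Mrpl19, Mrpl12 and Mrpl3, and Mrps12 is red in the 6 hearts of STING-/- mice.

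Genes of both subunits fell. In the CDDP against Saline comparison, the median log2 fold change was -0.26 for the 49 Mrpl genes and -0.18 for the 29 Mrps genes, with 14 (28.6%) and 10 (34.5%) of them lower. Assigned by the known structure, with Mrps18a and Mrps30 in the large subunit and Mrps36 left out, the medians were -0.25 and -0.21, and the difference between them shrank from -0.080 to -0.039. The Mrpl genes held 68.1%, 67.4% and 68.8% of the summed TPM of the members with saline and 67.9%, 67.1% and 66.3% with CDDP, which overlapped. The difference in mean log2(TPM + 1) between Mrpl and Mrps genes, in which each gene counts alike, was 0.15, 0.18 and 0.20 with saline and 0.13, 0.13 and 0.11 with CDDP, without overlap. Assigned by structure it was 0.12, 0.15 and 0.19 with saline and 0.12, 0.15 and 0.12 with CDDP, and these groups overlapped. In the STING-/- hearts the share of the Mrpl genes was 68.1%, 68% and 66.9%, and for STING-/-+CDDP mice 67.3%, 67.5% and 67.9%. Mrps30, which carries a small-subunit symbol but sits in the large subunit, had a log2 fold change of 0.19 (adjusted p = 0.346 by limma).

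Mrpl46 and Mrps11, which share the 41 bases printed above, were both called. Mrpl46 went from 37.0, 29.3 and 34.6 TPM with saline to 22.2, 23.4 and 23.7 with CDDP, and Mrps11 from 29.7, 29.4 and 26.7 to 18.9, 21.4 and 20.7. Neither pair of groups overlapped, and the log2 fold changes were -0.52 and -0.47 (adjusted p = 0.0211 and adjusted p = 0.0324 by limma). Their exons overlap by 173 bases on opposite strands. In all, 33 members share exon bases with another gene in GENCODE M21. Of the members named for a fall, Mrps34 shares 63.4% of its exon bases with Mapk8ip3 on the other strand and 37% with Nme3 on the same strand, which was itself lower with CDDP (-1.40, adjusted p = 0.00967 by limma). Mrpl19 shares 36% with Gcfc2 and Mrps27 24.2% with a noncoding gene, and Mrps18b shares 30.5% with an antisense gene. Whether the counting used strand is not given in the sources used here, so reads of such pairs may not be told apart.

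Without STING, few members passed with cisplatin. Between the STING-/-+CDDP and STING-/- hearts, 1 member was lower and none higher, where 0.68% and 0.253% of all tested genes were called; 11 members had an unadjusted p under 0.05 and were lower (14.1%), and 2 were higher (2.56%), against 9.79% and 3.67% of all tested genes. The member called was Mrps22, at 22.2, 20.9 and 23.2 TPM in STING-/- mice and 14.0, 11.6 and 11.5 in STING-/-+CDDP mice. These groups did not overlap (log2 fold change -0.79 with an SE of 0.13 and, by limma, adjusted p = 0.0232), and the gene fell in both genotypes. Leaving out any of these 6 hearts ended the call, with a log2 fold change between -0.88 and -0.75, as did scaling by the median of ratios (adjusted p = 0.0667 by limma) or quantile normalization (adjusted p = 0.0562 by limma). Mrpl12 lay just outside the threshold, at 157, 151 and 175 TPM in STING-/- mice and 106, 117 and 102 in STING-/-+CDDP mice (log2 fold change -0.56, adjusted p = 0.0502 by limma).

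The groups did not overlap for 26 members that were lower and 4 that were higher, where 16.9% and 7.28% of all tested genes showed this. The median log2 fold change of the 78 genes was -0.13 and that of all tested genes -0.11, and it moved to 0.0019 when hearts were scaled by the median of ratios. That scaling moved the median of all genes by 0.11.

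The 24 genes that were lower with cisplatin in wild-type hearts were then read in the STING-/- comparison, which shares no heart with the first. All 24 had a log2 fold change below 0 there, with a median of -0.24 against -0.60 in wild-type hearts, and 17 of them were without overlap. Of the other 54 members, 35 were below 0 (64.8%), with a median of -0.06. Among all tested genes 64.6% were below 0, with a median of -0.11. Of all 1433 genes lower with cisplatin in wild-type hearts, 93.0% were below 0 in the STING-/- comparison, against 100% of the 24 members. The shares lower without overlap were 58.3% and 70.8%. Whether the members differ here from other genes chosen in the same way was not tested. In 23 of the 24 genes, and in 94.8% of the 1433, the change was closer to 0 in STING-/- hearts. Genes chosen for a large change in one set of hearts tend to show a smaller one in another, and this count does not test the difference between genotypes.

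That difference was tested as the interaction of cisplatin and genotype. None of the 78 genes passed after adjustment by limma, where 0.00724% of all tested genes were called higher and 0% lower, and 9 had an unadjusted p under 0.05, all of them above 0 (11.5%, against 4.39% of all tested genes), with a smaller fall or a rise in STING-/- hearts. The median interaction was 0.11 for the members (0.045 to 0.15 when 1 heart was left out) and -0.10 for all tested genes. Scaling by the median of ratios moved these to 0.23 and 0.0026, and quantile normalization to 0.24 and 0.0139. The lowest adjusted p among the members was 0.366. Mrpl3 and Mrpl42 had the lowest p. For Mrpl3 the interaction was 0.81 on the log2 scale with an SE of 0.28 and, by limma, adjusted p = 0.366, with a change of -0.93 in wild-type hearts and -0.12 in STING-/- hearts. For Mrpl42 it was 0.44 with an SE of 0.16 and, by limma, adjusted p = 0.366. TPM of Mrpl42 was 571, 601 and 620 in STING-/- mice and 485, 556 and 506 in STING-/-+CDDP mice, and these groups did not overlap either.

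**Figure D3:**
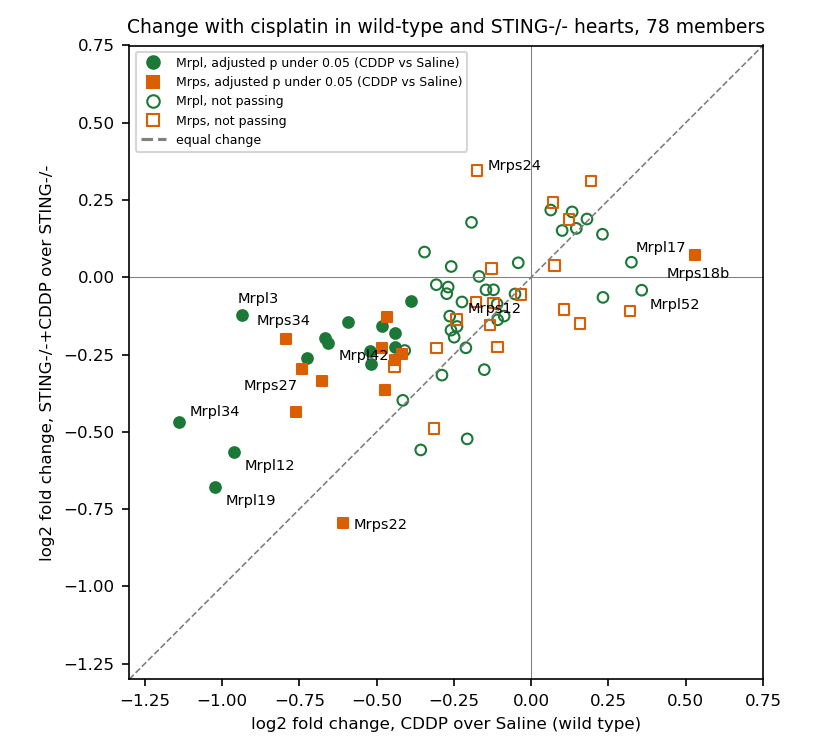
Log2 fold change with cisplatin of each of the 78 genes in wild-type hearts (x axis, CDDP over Saline) and in STING-/- hearts (y axis, STING-/-+CDDP over STING-/-), circles for Mrpl and squares for Mrps, filled where the adjusted p in wild-type hearts was under 0.05; the dashed line marks equal change. The 24 filled points on the left all lie below 0 on the y axis, 23 of them above the dashed line, and Mrps22 lies below it.

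Between the cisplatin-treated groups, 1 member was higher in the STING-/-+CDDP hearts than in the CDDP hearts and none was lower, where 0.362% and 0.854% of all tested genes were called; 10 members had an unadjusted p under 0.05 and were higher (12.8%), and 7 were lower (8.97%), against 5.94% and 13.9% of all tested genes. This comparison uses the same CDDP hearts as CDDP against Saline, so values of the 2 are given side by side and not as separate evidence. The median log2 fold change of the members was 0.033 (-0.020 to 0.095 when 1 heart was left out), and that of all tested genes was -0.095. Scaling by the median of ratios moved these to 0.15 and 0.0031, and quantile normalization to 0.18 and 0.0086. With quantile normalization 6 members were higher, with the median of ratios 2, and with TPM recomputed without mitochondrially encoded genes 3. Mrpl34 was 1 of the genes near the threshold, with a log2 fold change of 0.63 (adjusted p = 0.0895 by limma), against -1.14 for CDDP over Saline. Mrps34 was at 0.57 (adjusted p = 0.0859 by limma), with 78.8, 100.3 and 81.5 TPM in the STING-/-+CDDP hearts, each above every CDDP heart.

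The lowest members in this comparison were Mrps10 (-0.47), Mrpl17, Mrps18c (-0.45) and Mrps18b, and none of these 4 passed. Mrps18b was 26.4, 32.3 and 25.4 TPM in the STING-/-+CDDP hearts, each below every CDDP heart, with a log2 fold change of -0.44 (adjusted p = 0.144 by limma), and 23.1, 26.8 and 30 in STING-/- mice. Mrpl17 was at -0.46 (adjusted p = 0.120 by limma), with 45.9, 51.9 and 49.8 TPM. The interaction was -0.46 for Mrps18b with an SE of 0.21 and, by limma, adjusted p = 0.430.

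The member called in the comparison of the cisplatin-treated groups was Mrps12. It was set apart between wild-type and STING-/- mice, which also came from different suppliers. Mrps12 (ENSMUSG00000045948, chr7:28739641-28741820, minus strand) was 35.2, 33.2 and 31.1 TPM with saline and 27.4, 26.5 and 29.8 with CDDP. In STING-/- mice it stood at 54.0, 65.6 and 58.4, and in STING-/-+CDDP mice at 52.0, 57.6 and 51.8. The CDDP hearts were below the Saline hearts without overlap, a log2 fold change of -0.24 that passed with quantile normalization (adjusted p = 0.0482 by limma) and in no other alternative tried. All 6 hearts of STING-/- mice were above all 6 hearts of wild-type mice, with no value between 35.2 and 51.8. The log2 fold change was 0.92 between the cisplatin-treated groups with an SE of 0.12 and, by limma, adjusted p = 0.0133, and 0.82 between the groups without cisplatin (adjusted p = 0.0335 by limma). The second call was lost in 14 of 20 alternatives, in which the log2 fold change stayed between 0.74 and 0.88. The first was lost in 2 of 20, the fit of only the 6 hearts compared and the one without the second STING-/-+CDDP heart.

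Between the STING-/- and Saline hearts Mrps12 was the only member that passed, and none was lower, where 0.029% of all tested genes were higher and 0.0434% lower. The median log2 fold change of the members was -0.072, with 59 of 78 below 0 (75.6%), and that of all tested genes was 0.0017, with 49.7% below 0. At an unadjusted p under 0.05, 4 members were lower (5.13%), against 2.21% of all tested genes.

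Genes next to Mrps12 were read in the same comparison. Sars2, which faces it across the 170 bases printed above and encodes the mitochondrial seryl-tRNA synthetase, was 8.33, 7.0 and 6.68 TPM with saline and 5.75, 6.60 and 7.26 in STING-/- mice, and these groups overlapped (log2 fold change -0.15, adjusted p = 1 by limma). Nfkbib, an inhibitor of NF-kappaB beyond Sars2, was 13.7, 17.5 and 17.1 TPM with saline and 18.4, 24.2 and 18.1 in STING-/- mice, higher without overlap but without passing (log2 fold change 0.31, adjusted p = 1 by limma). Sirt2, a deacetylase gene next to it, was 75.02, 95.8 and 76.2 TPM with saline and 53.5, 61.3 and 52.7 in STING-/- mice, without overlap but without passing (log2 fold change -0.55, adjusted p = 0.699 by limma). Fbxo17, on the other side of Mrps12, was at most 1.52 TPM in both of these groups. Sting1 itself lies on chromosome 18.

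**Figure D4:**
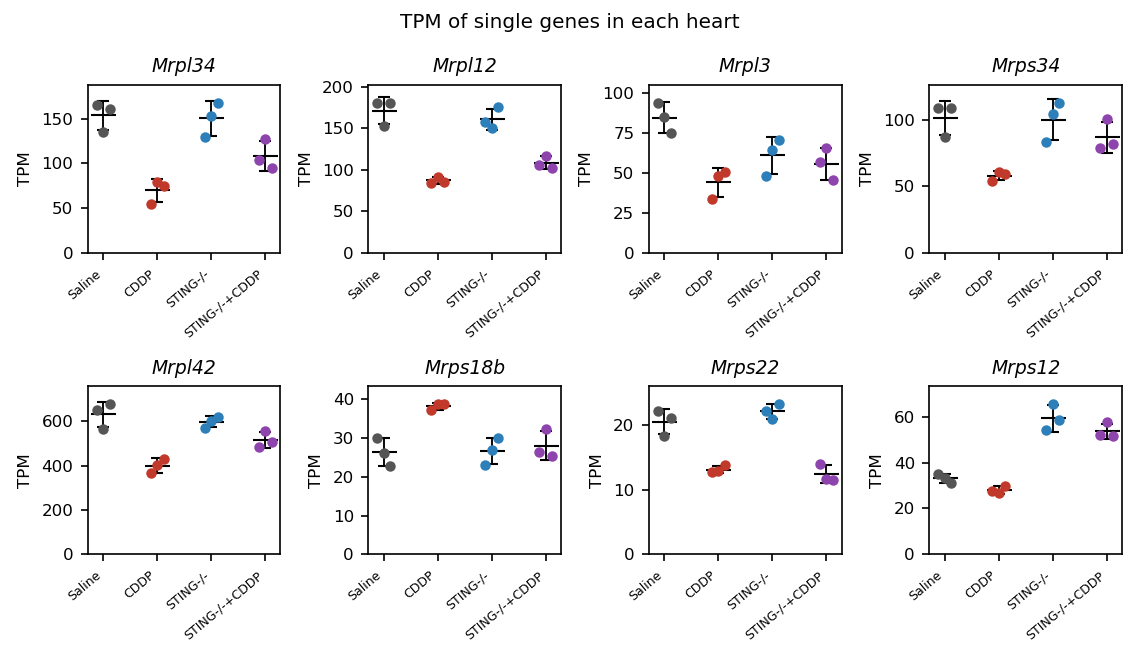
TPM of 8 members in each heart by group, on axes that start at 0; each point is 1 heart and black bars are the mean ± SD of 3 hearts. Mrpl34, Mrpl12, Mrps34 and Mrpl42 are lower in every CDDP heart than in any other heart, Mrpl3 has its lowest mean there but overlaps the STING-/- groups, Mrps18b is highest there, Mrps22 is low in both cisplatin-treated groups, and Mrps12 is at 51.8 TPM or more in every heart of STING-/- mice and at 35.2 or less in every wild-type heart.

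Of 5 ribosomal proteins that carry no Mrp symbol, 1 was lower and 1 higher (20% each) in the CDDP against Saline comparison. Among all tested genes 10.4% were lower and 8.52% higher. Ptcd3, a pentatricopeptide protein of the small subunit, was 40.7, 38.2 and 41.8 TPM with saline and 15.7, 25.8 and 21.98 with CDDP (log2 fold change -0.92, adjusted p = 0.00494 by limma). Dap3, a GTP-binding protein of the small subunit, was 56.1, 57.1 and 52.4 TPM and 63.1, 79.0 and 72.8 (log2 fold change 0.36, adjusted p = 0.0469 by limma). Both were without overlap and in opposite directions. 

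Genes that act with the ribosome were read from lists chosen with earlier results of these data known. With CDDP in wild-type hearts, where 10.4% of all tested genes were lower and 8.52% higher, 4 of 15 mitochondrial translation factors were lower (26.7%) and none higher by limma, also at an unadjusted p under 0.05, with a median log2 fold change of -0.32. Taco1, an activator of the translation of cytochrome c oxidase subunit 1, was 43.2, 35.4 and 38.9 TPM with saline and 14.1, 18.2 and 18.5 with CDDP, a log2 fold change of -1.17 (adjusted p = 0.00188 by limma). Tsfm, the exchange factor of the elongation factor Tufm, fell by 1.13 and Mrrf, the recycling factor, by 0.62 on the log2 scale (adjusted p = 0.00106 and adjusted p = 0.00748 by limma). Of 17 mitochondrial aminoacyl-tRNA synthetases, 5 were lower (29.4%) and likewise none higher, among them Aars2 (-0.82), Vars2 (-0.81) and Ears2 (-0.69).

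Of 26 genes for ribosome assembly and maturation of its RNA, 3 were lower and 1 higher, and the 11.5% lower is near the 10.4% of all tested genes. The one that rose was Malsu1, which binds the large subunit during assembly, at 8.46, 12.5 and 11.5 TPM with saline and 18.8, 20.4 and 22.1 with CDDP (log2 fold change 0.87, adjusted p = 0.00428 by limma). Mrm2, a methyltransferase of the ribosomal RNA, was at -0.55 and Fastkd2, which is needed for the RNA of the large subunit, at -0.51, and both passed. Among 9 regulators of mitochondrial genes, Myc (1.18) and Nrf1 (0.68) were higher and Esrra, the estrogen-related receptor alpha, was lower (-0.69, adjusted p = 0.0317 by limma). Esrra was 71.5, 75.4 and 67.2 TPM with saline and 30.6, 53.1 and 51.2 with CDDP. Of 6 genes of mitochondrial transcription, Tefm was lower (-0.54) and Tfb2m higher (0.49).

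Respiratory chain and cytosolic ribosome genes are given for scale. Of 79 nuclear genes for respiratory chain subunits, 14 were lower (17.7%) and 1 higher with CDDP in wild-type hearts, with a median log2 fold change of -0.18. In that comparison 10.4% of all tested genes were lower and 8.52% higher. Of 11 mitochondrially encoded protein genes tested, none passed by limma and 1 was lower at an unadjusted p under 0.05, with a median of -0.078. A further 2 of these genes, mt-Atp6 and mt-Nd6, were listed at 0 in a heart or more. Of 79 cytosolic ribosomal proteins, 46 were higher (58.2%) and none lower by limma, with 1 lower at an unadjusted p under 0.05 and a median of 0.46, opposite in sign to that of the mitochondrial ones.

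Motifs in the promoter windows were counted for the members and for all windows of the table. The NRF1 motif was in 21.3% of the 75 member windows, 12.6% of the windows of tested genes and 6.25% of all 32851 windows. For the ETS motif these shares were 16%, 7.48% and 3.89%, and for the YY1 motif AAGATGGCG 10.7%, 2.83% and 1.40%. Members lower with CDDP had the NRF1 motif in 3 of 21 windows (14.3%), as in Mrpl12, and the other members in 13 of 54 (24.1%), as in Mrpl17. The ETS motif was in 4 of 21 (19%) and 8 of 54 (14.8%). The YY1 motif was in 5 of 21 (23.8%) and 3 of 54 (5.56%). These 5 were Mrpl36, Mrpl37, Mrpl42, Mrps11 and Mrps27, and the match lay after the start in Mrpl37, Mrpl42 and Mrps27. CCAAT was in 40% of member windows and 37.3% of those of tested genes, GGGCGG in 52% and 60.9%, and the E-box CACGTG in 9.33% and 9.87%. Between members lower with CDDP and the others, these were in 52.4% and 35.2%, 57.1% and 50%, and 9.52% and 9.26%. Some genes have several windows, and counted by gene the E-box was in 7.25% of members and 11.8% of tested genes, and in 10% of members lower with CDDP and 6.12% of the others. A match describes these letters only. Mrpl34 has none of the 6 motifs in its window.

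Some hearts stood apart in markers of other cells, and several of these markers differed between the groups. All 5 erythroid markers were lower in CDDP than in Saline hearts, with Hbb-bs the most abundant and Alas2 at 0 in 1 heart. Their summed TPM was 6815, 4146 and 9317 with saline and 1271, 141 and 41.95 with CDDP, and it came to 1266, 1465 and 264 in STING-/- mice and 101, 81.9 and 311 in STING-/-+CDDP mice. Saline hearts were above all 9 others. Of 6 macrophage markers 4 were lower with CDDP, of 5 fibroblast markers 3, and of 5 endothelial markers 2, and none of them was higher. In this comparison 10.4% of all tested genes were lower and 8.52% higher. Of the macrophage markers 1 of 6 was higher in both genotype comparisons, as Mrps12 was, while the median log2 fold change of the 6 between STING-/- and Saline hearts was 0.057. This was Lyz2, a lysozyme gene, at 0.95, 2.45 and 1.18 TPM with saline, 1.06, 1.01 and 83.5 with CDDP, 706, 565 and 417 in STING-/- mice and 283, 401.5 and 176 in STING-/-+CDDP mice. Of 7 heart muscle markers, 1 was lower and 1 higher with CDDP in wild-type hearts, with Myl2 the most abundant. Of these, 6 had a log2 fold change below 0, and their median was -0.245, against -0.24 for the members.

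The 6 neutrophil markers summed to 1096 TPM in the first CDDP heart, in which heart muscle markers were lowest at 22700, and to at most 89.7 in the other 11 hearts. S100a9 was the most abundant of them, and Ly6g, which defines neutrophils, was 1.75 in that heart and at 0 in 5 others. None of the 4 neutrophil markers tested passed by limma, and 3 were higher with CDDP at an unadjusted p under 0.05. The 4 atrial markers, led by Nppa, summed to 38940 TPM in the second Saline heart and to 310 and 339 in the other 2. Their sum varied widely within the other groups as well. It was 3793, 854 and 14620 TPM with CDDP and 2994, 12840 and 8861 in STING-/- mice. In STING-/-+CDDP mice it was 9025, 902 and 331. None of these markers passed by limma, also at an unadjusted p under 0.05 (0 of 4). Of 4 fat markers 3 were tested, and none passed by limma or at an unadjusted p under 0.05 with CDDP in wild-type hearts, while all 3 were higher in STING-/- than in Saline hearts at an unadjusted p under 0.05. Lymphocyte and skeletal muscle markers summed to at most 3 and 1.13 TPM in any heart, and none was tested.

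The fall of the members was also read with 1 heart left out. Without the first CDDP heart 17 members were lower and without the third 18, all of them among the 24. Without the second Saline heart 21 were lower, of which 20 were among the 24. In each case all 24 genes kept a log2 fold change below 0. Mrps6 was 102 TPM in the second Saline heart against 44.8 and 37.0 in the other 2, and it was not called (log2 fold change -0.31, adjusted p = 0.587 by limma). Mrpl10, Mrpl46, Mrps10, Mrps11, Mrps6 and the members named for the YY1 motif were picked with their values in view. The part of the other cell markers in the results was not tested.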

How the data were processed

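RNA of 12 mouse hearts (4 groups of 3) was sequenced from total RNA. The authors deposited 1 table of TPM for 55885 genes, made per the labels with fastp, HISAT and RSEM on GRCm38.p5. Versions and the annotation are not given in the sources used here, and without counts the depth of each heart is unknown. Columns of group means were not used. Groups follow the sample labels. The study used 6 mice per group. The p-values rest on the spread between the 3 sequenced hearts of a group, pooled over the 4 groups and shrunk by limma across genes.

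The 13815 genes that reached 1 TPM in 3 or more hearts were tested on log2(TPM + 1) with limma 3.58.1 in R 4.3.3 (trend on), in 1 model of 12 hearts with 8 residual degrees of freedom, two-sided, with Benjamini-Hochberg adjustment over all tested genes and a threshold of 0.05. Tables and figures used Python 3.11.15, pandas 2.3.3, scipy 1.17.1 and matplotlib 3.10.9. Positions are from GENCODE M21 and promoters from RefSeq.

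The results were recomputed with 0.1 as the pseudocount, unfiltered, with a minimum of 5 TPM, with median of ratios or quantile normalization, with TPM without mitochondrially encoded genes, with only the compared groups, with a replicate block and leaving out each heart. Named genes were the 8 largest non-overlapping called changes each way with CDDP, the 3 largest each way elsewhere (or the 2 with the lowest p), the 3 farthest from the median on each side, the 5 most and 5 least abundant, and members with a known role. Members and lists were chosen with earlier results of these data known.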

Additional observations from a re-analysis of the deposited data

Results flagged for a closer look

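For 9 members, the change with cisplatin differed between STING-/- and wild-type hearts at an unadjusted p under 0.05 in the limma interaction test, and none passed after adjustment, with adjusted p between 0.366 and 0.415. All 9 were above 0, as were 4.39% of all tested genes at such a p, and 11.7% in either direction. Mrpl3 (unadjusted p = 0.0149 by limma) had log2 changes of -0.93 in wild-type and -0.12 in STING-/- hearts, and Mrpl42 (0.0167) of -0.66 and -0.21. Mrpl34 (0.0186) had changes of -1.14 and -0.47, and Mrps34 (0.0187) of -0.79 and -0.20. For Mrpl4 (0.0209) they were -0.59 and -0.14, for Mrpl18 (0.0221) -0.73 and -0.26, for Mrpl12 (0.0347) -0.96 and -0.56, and for Mrpl55 (0.0452) -0.67 and -0.20. Mrps24 (0.0311) was the exception in sign, at -0.18 in wild-type and 0.35 in STING-/- hearts, and shares 15.4% of its exon bases with Urgcp on the same strand. The other 8 are among the 24 genes chosen for a fall in wild-type hearts, of which they are 33.3%, and 32% of all 1433 genes with such a fall had an unadjusted p under 0.05.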

How the results depend on the processing

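Of the 24 members lower with CDDP, all kept their direction in the 20 alternatives and 8 were called in each of them (Mrpl12, Mrpl18, Mrpl19, Mrpl3, Mrpl34, Mrpl42, Mrps2 and Mrps34). The count was 8 with only the compared groups, which leaves 4 residual degrees of freedom, 14 to 22 without 1 heart, 18 by median of ratios and 29 by quantile normalization. The count of members higher with CDDP was 0 with only the compared groups or a replicate block, and 0 to 1 without 1 heart. Without 1 heart, the log2 fold change of genes near 0 crossed it: Mrps18a from -0.0933 to 0.0416, Mrpl35 from -0.3412 to 0.0440, Mrpl47 from -0.4089 to 0.0109 and Mrpl58 from -0.1235 to 0.0295, each positive without the first CDDP heart and Mrps18a also without the first Saline heart (0.0153). Between STING-/-+CDDP and CDDP, members higher numbered 2 by median of ratios, 6 by quantile normalization, 3 without mitochondrially encoded genes, 0 with only the compared groups and 0 to 1 without 1 heart, and the median was 0.1489 by median of ratios and 0.1788 by quantile normalization. Between STING-/- and Saline, members higher numbered 0 by median of ratios, with only the compared groups and with a replicate block, and 0 to 1 without 1 heart. Between STING-/-+CDDP and STING-/-, members lower numbered 0 by median of ratios or quantile normalization, 2 without mitochondrially encoded genes and 0 to 2 without 1 heart, and the median was 0.0019 by median of ratios. The median interaction, 0.1066 as reported, was 0.2291 by median of ratios and 0.2356 by quantile normalization, which move the median of all genes by 0.10 and 0.12. Causes of these shifts were not tested. Same-numbered hearts did not deviate together (r -0.333 to 0.261, 4 of 18 pairs over 0.1, 1 of 12 hearts closest to its own number). No pairing by number was seen, but with so few hearts per group a pairing could be missed. The replicate block left 19 members lower with CDDP. TPM holds no depth, so counting error could not be given.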
